A study of Mus musculus with 18 samples.

Results

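The genes described here are 6 genes of androgen signalling in the mouse prostate, of 55469 genes in each deposited expression table. They were taken by symbol and comprise Foxa1, Tmprss2, Fkbp5, Pmepa1, Srd5a1 and Srd5a2. The study examined how loss or mutation of Elac2, which encodes an endonuclease that trims the 3′ ends of tRNA precursors, alters the prostate. RNA sequencing covered 18 libraries of the ventral and lateral prostate lobes of male mice on a C56NL/6N background, 3 in each of 6 groups. The groups were WT littermates, KO mice (ELAC2 Pb-Cre) and A537T mice, each at 10 and 30 weeks of age. In KO mice a Cre recombinase under the probasin promoter removes exon 8 of Elac2 in prostate epithelium, so stromal and other cells of the lobes keep the gene. A537T mice carry a threonine in place of an alanine of ELAC2 in every tissue. The 3 WT libraries of an age served as control for both mutant lines, so the KO and A537T comparisons of that age are not independent. The methods of the study describe its replicates as biological, and p-values measure the spread between the 3 libraries of a group.

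Androgens drive growth and secretion of the prostate epithelium. Testosterone is reduced to the more potent dihydrotestosterone by steroid 5-alpha-reductases, which Srd5a1 and Srd5a2 encode, and the hormone then activates the androgen receptor, a nuclear receptor that binds androgen response elements in DNA. Foxa1 encodes a forkhead pioneer factor that opens chromatin for the receptor in luminal cells. Tmprss2, a serine protease of the luminal cell surface, and Fkbp5, an immunophilin of the HSP90 chaperone complex, are textbook targets of the receptor, and Fkbp5 responds to glucocorticoids as well. Pmepa1 is induced by androgens and by TGF-beta, and its product limits both pathways.

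The 5 genes with a RefSeq promoter entry (assembly GRCm38.p6; Foxa1, Tmprss2, Fkbp5, Srd5a1 and Srd5a2) were searched for androgen response elements in a window from 250 bases before to 50 bases after the transcription start. The 250 bases before the start are shown for Foxa1 and Tmprss2, the genes with the largest differences at 30 weeks, and for Fkbp5, the target with the highest read level. All lie on the minus strand and are written 5′ to 3′, with the letters of forkhead motifs (TGTTTAC or its complement GTAAACA) and GC boxes (GGGCGG or CCGCCC) in capitals. They span chr12:57546112-57546361, chr16:97611196-97611445 and chr17:28486150-28486399. The Foxa1 and Fkbp5 windows lie inside the annotated genes, whose 5′ ends are at chr12:57546916 and chr17:28517527. Other start sites of these genes were not searched.
Foxa1: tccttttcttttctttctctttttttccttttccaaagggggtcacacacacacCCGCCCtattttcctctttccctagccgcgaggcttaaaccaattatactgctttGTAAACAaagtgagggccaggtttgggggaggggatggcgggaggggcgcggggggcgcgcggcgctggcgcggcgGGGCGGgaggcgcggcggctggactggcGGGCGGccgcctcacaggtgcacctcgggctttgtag
Tmprss2: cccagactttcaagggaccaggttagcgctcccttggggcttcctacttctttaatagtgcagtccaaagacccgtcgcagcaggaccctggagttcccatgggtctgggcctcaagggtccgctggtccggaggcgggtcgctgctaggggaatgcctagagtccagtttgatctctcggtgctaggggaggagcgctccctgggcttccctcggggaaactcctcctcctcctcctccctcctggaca
Fkbp5: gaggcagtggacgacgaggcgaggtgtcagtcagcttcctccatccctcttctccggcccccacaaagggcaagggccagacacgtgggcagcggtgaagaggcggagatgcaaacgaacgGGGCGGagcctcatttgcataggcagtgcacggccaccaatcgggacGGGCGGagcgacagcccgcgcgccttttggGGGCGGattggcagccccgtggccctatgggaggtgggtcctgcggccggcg
Neither the full androgen response element, a palindrome of the arm AGAACA and its inverted copy spaced by 3 bases, nor the arm AGAACA alone was found in any of the 5 windows on either strand. The full element occurred in 0.00913% of 32851 promoters of the same length and the arm in 19% of them, and the arm forms part of the full element, so these searches overlap. Foxa1 held a forkhead motif whose first base lies 141 bases before the start, a motif present in 3.65% of promoters. GC boxes occurred in 35.7% of promoters and numbered 3 in the whole Foxa1 window, 4 in Fkbp5, 4 in Srd5a1 and 2 in Srd5a2, whereas Tmprss2 had none. A TATA motif (TATAAA or TTTATA), present in 13.6% of promoters, was in none of the 5 windows. These matches describe the letters near a start site and say nothing about binding there.

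The libraries held 6569642 to 11225281 reads, recovered from the deposited normalized counts. RNA of neighbouring tissues moved with the groups, although the seminal vesicles were taken off at dissection. At 30 weeks the 9 seminal vesicle markers, led by the Svs genes, took 8.53% of reads in 4AF and 6.32% in 6AF, both from KO mice, and 7.24% in 7AF and 9.17% in 9AF, both from A537T mice. They took at most 0.000353% in KO library 5AF, A537T library 8AF and all WT libraries of that age, and Svs3b, Svs6, Pate4 and Sva were at 0 reads in both 5AF and 8AF. At 10 weeks they took 0.000808 to 4.64% in WT, 6.56 to 10.3% in KO and 0.0374 to 0.191% in A537T libraries. The 15 skeletal muscle markers took 1.57 to 5.42% of reads in WT, 0.0265 to 0.866% in KO and 0.534 to 1.67% in A537T libraries at 10 weeks, and at most 0.0358% at 30 weeks. All 10 luminal and pan-epithelial markers were detected, at 0.127 to 0.223% of reads. Elac2 normalized counts in KO libraries were 119, 111 and 115 at 10 weeks against 124, 142 and 166 in WT, and 98.4, 151 and 122 at 30 weeks against 149.6, 153 and 194. In these counts the groups were apart at 10 weeks, as they were for 26% of the genes tested in either direction. At 30 weeks library 5AF lay within the WT range. The log2 fold changes of -0.31 (SE 0.16) and -0.43 (SE 0.20) had limma adjusted p = 0.325 and 0.478. As shares of each library's reads, the 10-week Elac2 values of KO and WT overlapped. With libraries scaled to the same total, the 10-week log2 fold change was -0.10 (limma adjusted p = 0.72). A gene-level count holds all exons, and reads of cells without Cre remain in it.

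Across the 6 groups the genes differed most in how evenly they were expressed. Levels are given in RPM, the reads of a gene in a library scaled to a library total of 1000000 reads, or, between genes, in RPKM, which is RPM per kilobase of exon. In RPKM, median levels over the 18 libraries were 29.2 for Foxa1, 28.5 for Fkbp5, 19.7 for Tmprss2, 9.35 for Srd5a2, 1.89 for Pmepa1 and 0.878 for Srd5a1. The highest library exceeded the lowest by 20.1-fold for Srd5a1 and 7.59-fold for Pmepa1, but by only 2.79-fold for Foxa1 and 2.81-fold for Srd5a2. Fkbp5 was ordered by age, with means in RPM of 395 ± 35.7 (SD, n = 3) in WT, 348 ± 65.1 in A537T and 335 ± 145 in KO mice at 30 weeks, ahead of 226 ± 106 in A537T, 209.5 ± 82.5 in WT and 193 ± 29.9 in KO mice at 10 weeks. Every pair of neighbours in that order overlapped.
Tmprss2 had nearly equal means in 30-week WT (174 ± 37.2), 10-week A537T (174 ± 56.2) and 10-week KO mice (173 ± 38.3 RPM), followed by 30-week KO (146 ± 10.8), 10-week WT (99.3 ± 57.7) and 30-week A537T mice (97.6 ± 30.3), and again all neighbours overlapped. Foxa1 was highest in 30-week WT mice, at 154 ± 13 RPM, and these libraries did not overlap those of the next group, 10-week A537T at 111 ± 13.2. Below it came 30-week A537T (106 ± 46.3), 10-week WT (99.4 ± 28.5), 30-week KO (93.5 ± 38.6) and 10-week KO mice (74 ± 9.43), all overlapping their neighbours. The 30-week A537T group overlapped 30-week WT, with 155.9 RPM in 8AF against a WT minimum of 139.6.
Pmepa1 ran from 20.1 ± 8.25 in A537T, 11.9 ± 2.22 in KO and 10.6 ± 1.3 in WT mice at 10 weeks to 7.26 ± 1.55, 6.45 ± 2.44 and 4.77 ± 1.24 RPM in the same lines at 30 weeks. The 10-week WT and 30-week A537T libraries, neighbours in that order, were the only pair apart. Srd5a1 followed the same order of groups, from 13.5 ± 13.9, 4.16 ± 1.18 and 3.06 ± 1.94 to 2.95 ± 1.23, 1.92 ± 0.589 and 1.89 ± 0.405 RPM, with all neighbours overlapping. Srd5a2 was lowest in 10-week A537T mice at 9.63 ± 2.73 and between 13.4 and 16.4 RPM on average elsewhere, again without a gap between neighbours. These levels in RPM were not tested across tables, and a lower level in whole lobes cannot separate fewer cells of a type from less RNA per cell.

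**Figure D1:**
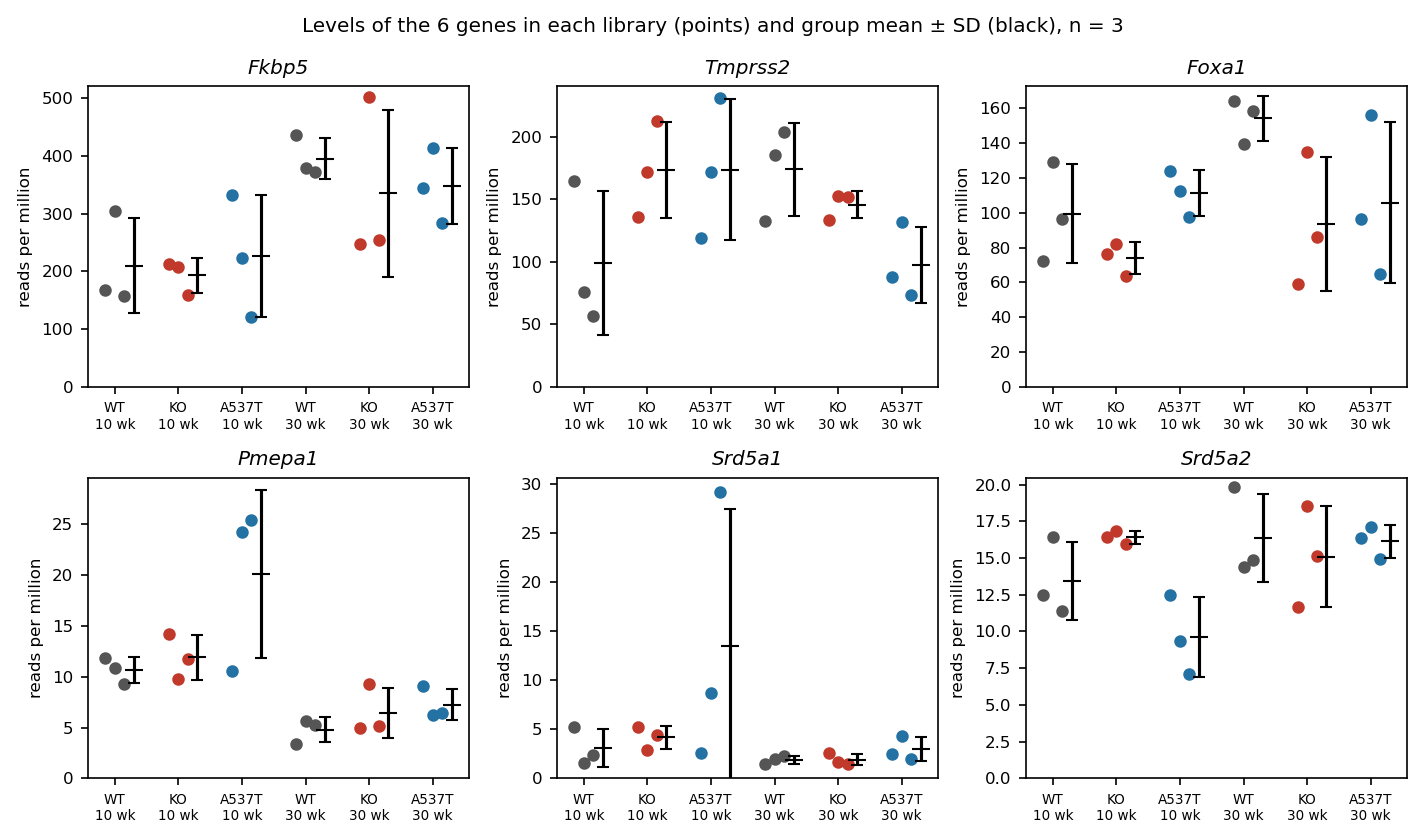
Level of each gene in RPM (vertical axes, linear from 0) for the 6 groups of 3 libraries, coloured grey for WT, red for KO and blue for A537T. Points are single libraries and black bars give the mean ± SD; Foxa1 in 30-week WT mice stands above the next group, and 1 A537T library at 10 weeks carries the highest Srd5a1.

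Foxa1 (ENSMUSG00000035451.7, chr12:57540628-57546916 on GRCm38, minus strand) was lower on average in KO than in WT mice at both ages, and at 30 weeks in A537T mice, but no difference passed the adjusted threshold. At 30 weeks its normalized counts were 1459, 1306 and 1398 in WT and 561, 1114 and 818 in KO libraries. Every KO library lay below every WT library, which in that direction held for 8.41% of the 14729 genes tested. The log2 fold change was -0.79 (SE 0.23) with limma adjusted p = 0.393. The KO library nearest to WT was 5AF, the one without seminal vesicle RNA, and with 5AF as the sole KO library, a setting added after the data were seen, the log2 fold change was -0.32 (limma adjusted p = 0.883; adjusted p ranged from 0.0189 to 0.899 over all alternatives). Without 5AF it was -1.03 with limma adjusted p = 0.0189, a setting that called 6.35% of all genes.

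In 30-week A537T mice Foxa1 normalized counts were 845, 1317 and 605 against 1456, 1302 and 1398 in the WT libraries of that table. Library 8AF, without seminal vesicle RNA, lay inside the WT range and the other two lay below it. The log2 fold change was -0.66 (SE 0.26) with limma adjusted p = 0.346, and -0.07 with 8AF as the sole A537T library (limma adjusted p = 0.969; 0.0166 to 0.969 over all alternatives). Without 8AF it was -0.95 (limma adjusted p = 0.0166), where 8.16% of all genes were called. In both lines the low Foxa1 values were those of the libraries rich in Svs reads. With the mean log2 level of seminal vesicle markers as a covariate the log2 fold change at 30 weeks was -0.36 (limma adjusted p = 0.899) in KO and -0.12 (limma adjusted p = 0.966) in A537T mice. With that of luminal markers it was -0.43 (limma adjusted p = 0.249) and -0.24 (limma adjusted p = 0.967). Seminal vesicle RNA was high only in mutant libraries at that age, so its covariate fit cannot separate it from genotype.

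At 10 weeks Foxa1 normalized counts were 580.1, 1101 and 1001 in WT and 567, 669 and 478 in KO libraries. WT library 10AF sat among the KO libraries, so the groups overlapped, as they did for all 6 genes in this comparison, in which 26% of the 15089 genes tested did not overlap. The log2 fold change was -0.61 (SE 0.26) with limma adjusted p = 0.266. Leaving out 10AF gave -0.89 with limma adjusted p = 0.0248 (range over all alternatives 0.0248 to 1), in a setting that called 18.8% of all genes. All 3 KO libraries carried more seminal vesicle RNA and less skeletal muscle RNA than the WT libraries. Of these WT libraries 10AF was nearest to KO in both, with seminal vesicle markers at 4.64% and skeletal muscle markers at 1.57% of reads. With the mean log2 level of skeletal muscle markers as a covariate the log2 fold change was -0.14 (limma adjusted p = 0.9996). With that of seminal vesicle markers it was -0.50 (limma adjusted p = 0.853), and with that of luminal markers -0.85 (limma adjusted p = 0.106). Each of these marker shares set every KO library apart from every WT library, so the fits cannot separate them from genotype. In A537T mice of that age Foxa1 counts were 1109.7, 973 and 768 against 588, 1097 and 1001, a log2 fold change of 0.12 (SE 0.26) with limma adjusted p = 0.928.

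**Figure D2:**
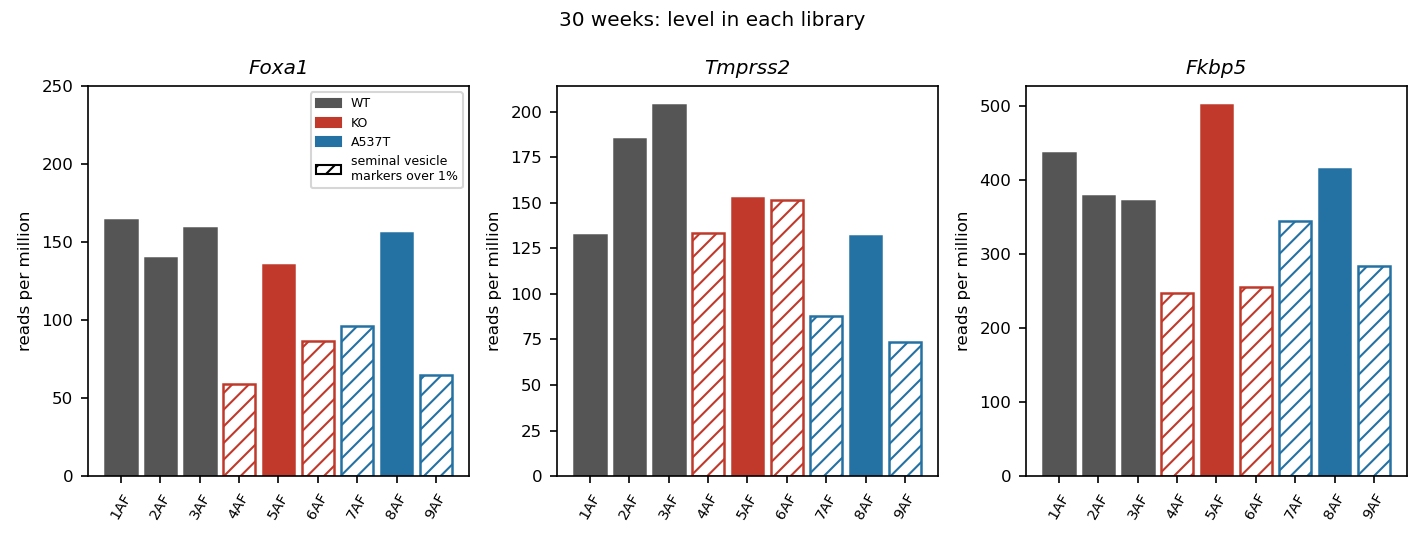
Foxa1, Tmprss2 and Fkbp5 in RPM (vertical axes from 0) in the 9 libraries of 30-week mice, in grey for WT, red for KO and blue for A537T. Hatched bars mark the 4 libraries in which seminal vesicle markers exceeded 1% of reads; Foxa1 is lowest in those 4, while Tmprss2 is below all WT libraries in the A537T group, 8AF only by a narrow margin.

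Tmprss2 (ENSMUSG00000000385.8, chr16:97564682-97611195, minus strand) had the smallest limma adjusted p of the 6 genes, in 30-week A537T mice. Its normalized counts there were 770.4, 1111 and 685 against 1221, 1801 and 1874 in WT libraries. All A537T libraries, including 8AF, lay below all WT libraries, which in that direction held for 9.4% of the 14789 genes tested. The log2 fold change was -0.94 (SE 0.23) with limma adjusted p = 0.255, so it was not called. DESeq2 on the recovered reads called it, at -0.93 with adjusted p = 0.00824, together with 3.22% of all genes, and edgeR's quasi-likelihood test did not, with adjusted p = 0.236. Over all alternatives the adjusted p ran from 0.00824 to 0.933. Without 8AF the log2 fold change was -1.14 (limma adjusted p = 0.0211), where 8.16% of all genes were called. With 8AF as the only A537T library it was -0.53. The seminal vesicle score as covariate gave -0.52 (limma adjusted p = 0.731), a fit that cannot separate seminal vesicle RNA from genotype.

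In 30-week KO mice, whose libraries 4AF and 6AF also held seminal vesicle RNA, Tmprss2 counts were 1268, 1256 and 1434 against 1174, 1733 and 1797, inside the WT range. The log2 fold change was -0.23 (SE 0.18) with limma adjusted p = 0.649. At 10 weeks the direction was the opposite. KO libraries had 1010.4, 1400.5 and 1596 and WT libraries 1322, 648 and 589, a log2 fold change of 0.72 (SE 0.33) with limma adjusted p = 0.283. A537T libraries had 1059.7, 1485 and 1813 against 1447, 697 and 635, a log2 fold change of 0.72 (SE 0.35) with limma adjusted p = 0.749. In both tables WT library 10AF was as high as the mutants. Its removal raised the estimate to 1.09 in KO mice (limma adjusted p = 0.0257, 0.0257 to 0.9996 over all alternatives), where 18.8% of all genes were called. The A537T estimate rose to 1.09 as well (limma adjusted p = 0.0967, 0.0967 to 0.998 over all alternatives). With a marker score as covariate the 10-week A537T estimate was -0.02 (limma adjusted p = 0.998) for skeletal muscle, 0.77 (limma adjusted p = 0.571) for seminal vesicle and 1.30 (limma adjusted p = 0.173) for luminal markers. For 10-week KO mice the same scores gave 0.55 (limma adjusted p = 0.9996), 0.45 (limma adjusted p = 0.883) and 0.94 (limma adjusted p = 0.134). The marker shares of these KO libraries were all apart from WT, so the fits cannot separate them from genotype.

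Between ages the effect of A537T on Tmprss2 differed by -1.65 on the log2 scale (30 minus 10 weeks), with an exact two-sided permutation p = 0.015 over the 400 arrangements of genotype within age and an adjusted p = 0.18 over the 12 tests of 6 genes in 2 lines. The smallest p that this design allows is 0.005, which becomes 0.06 after adjustment over 12 tests where 1 gene alone reaches it, so a single gene could not pass the adjusted threshold. For KO mice the difference was -0.95 with exact permutation p = 0.095 and adjusted p = 0.465. For the other 10 differences between ages the adjusted p by the same exact permutation test was 0.465 or higher. Leaving out single libraries kept the A537T difference for Tmprss2 between -2.03 and -1.43, with exact permutation adjusted p from 0.06 to 0.42.

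Fkbp5 (ENSMUSG00000024222.17, chr17:28399094-28517527, minus strand) passed the threshold in none of the comparisons. Its normalized counts at 30 weeks were 3871, 3536 and 3269 in WT and 2354, 4135 and 2413 in KO libraries. Libraries 4AF and 6AF lay below WT and 5AF above it, giving a log2 fold change of -0.31 (SE 0.22) with limma adjusted p = 0.624. With 5AF alone the sign turned, to 0.22. Without 5AF the value was -0.57 (limma adjusted p = 0.0264, 0.0264 to 0.966 over all alternatives), where 6.35% of all genes were called. A537T libraries of that age had 3023, 3498 and 2649.6 against 3879, 3540.4 and 3284, with 8AF again highest, and a log2 fold change of -0.23 (SE 0.13) with limma adjusted p = 0.464.
At 10 weeks KO libraries had 1578, 1694 and 1190.0 and WT libraries 1337, 2596 and 1627, a log2 fold change of -0.28 (SE 0.27) with limma adjusted p = 0.568. Without WT library 11AF, the highest, the log2 fold change was -0.0043 (limma adjusted p = 0.994), and without 10AF, the lowest, -0.48 (limma adjusted p = 0.206). A537T libraries spread from 952 to 2971, wider than the WT range of 1437 to 2737, with a log2 fold change of -0.10 (SE 0.43) with limma adjusted p = 0.969, and the lowest was 18AF.

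Pmepa1 (ENSMUSG00000038400.15, chr2:173224458-173276533, minus strand) had 37 to 221 reads a library. At 30 weeks its normalized counts in A537T libraries were 79.4, 53 and 60.2 against 29.7, 51.6 and 45.5 in WT. All A537T libraries exceeded all WT libraries, as 9.18% of all genes tested did, and the log2 fold change was 0.61 (SE 0.28) with limma adjusted p = 0.389. Without 1AF, the lowest WT library, it was 0.38 (limma adjusted p = 0.594). KO libraries had 46.7, 76.4 and 48.9 against 29.8, 53 and 46.5 (log2 fold change 0.41, SE 0.30, limma adjusted p = 0.637), with overlap, and the value was 0.17 (limma adjusted p = 0.881) without 1AF and 0.19 (limma adjusted p = 0.763) without 5AF, the highest KO library.
At 10 weeks the WT libraries were tight, at 100.5, 95.1 and 99.1, whereas A537T libraries had 94.7, 210.3 and 199.8. Libraries 17AF and 18AF stood above WT and 16AF just below it, for a log2 fold change of 0.69 (SE 0.31) with limma adjusted p = 0.746, in a comparison in which 11.9% of all genes did not overlap between groups. Without 16AF the log2 fold change was 1.05 (limma adjusted p = 0.72), and without 17AF 0.48 (limma adjusted p = 0.984). The 11 stromal and smooth muscle markers took 0.385, 0.588 and 1.07% of reads over the A537T libraries of 10 weeks and 0.235 to 0.621% in WT, and their part in the Pmepa1 values was not tested. KO libraries of that age had 106, 79.6 and 88 against 94.9, 92.4 and 95.9, a log2 fold change of -0.06 (SE 0.17) with limma adjusted p = 0.86.

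The log2 fold changes of the 5-alpha-reductase genes against WT were furthest apart in 10-week A537T mice. Srd5a1 (ENSMUSG00000021594.11, chr13:69573449-69611442, minus strand), the more widely expressed isoenzyme, was scarce, with 12 to 45 reads in every library except 17AF, with 79 reads, and 18AF, with 227 reads. Srd5a2 (ENSMUSG00000038541.8, chr17:74016955-74047916, minus strand), the main isoenzyme of the prostate, had 55 to 219 reads. At 10 weeks Srd5a1 normalized counts in A537T libraries were 23.4, 75.2 and 229 against 48.7, 15.6 and 27.7 in WT. Library 16AF lay inside the WT range and 18AF was far above every other library. The log2 fold change was 1.39 (SE 0.80) with limma adjusted p = 0.752, and without 18AF it was 0.59 (limma adjusted p = 0.971, 0.303 to 0.998 over all alternatives). Without 16AF it was 2.21 (limma adjusted p = 0.72), and with the skeletal muscle score as covariate -0.04 (limma adjusted p = 0.998). In 18AF 227 reads gave 29.2 RPM, with an exact Poisson 95% interval of 25.5 to 33.2 that covers counting error only.

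Srd5a2 ran the other way over the same libraries, with 112, 80.9 and 55.5 normalized counts in A537T against 106, 147 and 125 in WT. Libraries 17AF and 18AF were below every WT library and 16AF within their range, and the log2 fold change was -0.64 (SE 0.28) with limma adjusted p = 0.746. Without 18AF it was -0.39 (limma adjusted p = 0.971), and without 16AF -0.89 (limma adjusted p = 0.72). Per exon base, Srd5a2 exceeded Srd5a1 by 4.3-fold to 24.8-fold in every WT and KO library, by 8.65-fold in 16AF and by 1.95-fold in 17AF. In 18AF alone the order was turned, with a ratio of 0.439. The 5 basal epithelial markers took 0.00891% of reads in 16AF, 0.0194% in 17AF and 0.0405% in 18AF, against 0.00638 to 0.0112% in 10-week WT libraries. Of them Krt5, Krt15 and Trp63 were highest in 18AF, at 187, 173 and 38.8 RPM, whereas Krt14 was at 5.27 and Krt17 at 1.8, inside the WT range. All 5 were above 0 in all libraries, and their part in the Srd5a1 and Srd5a2 values was not tested.

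**Figure D3:**
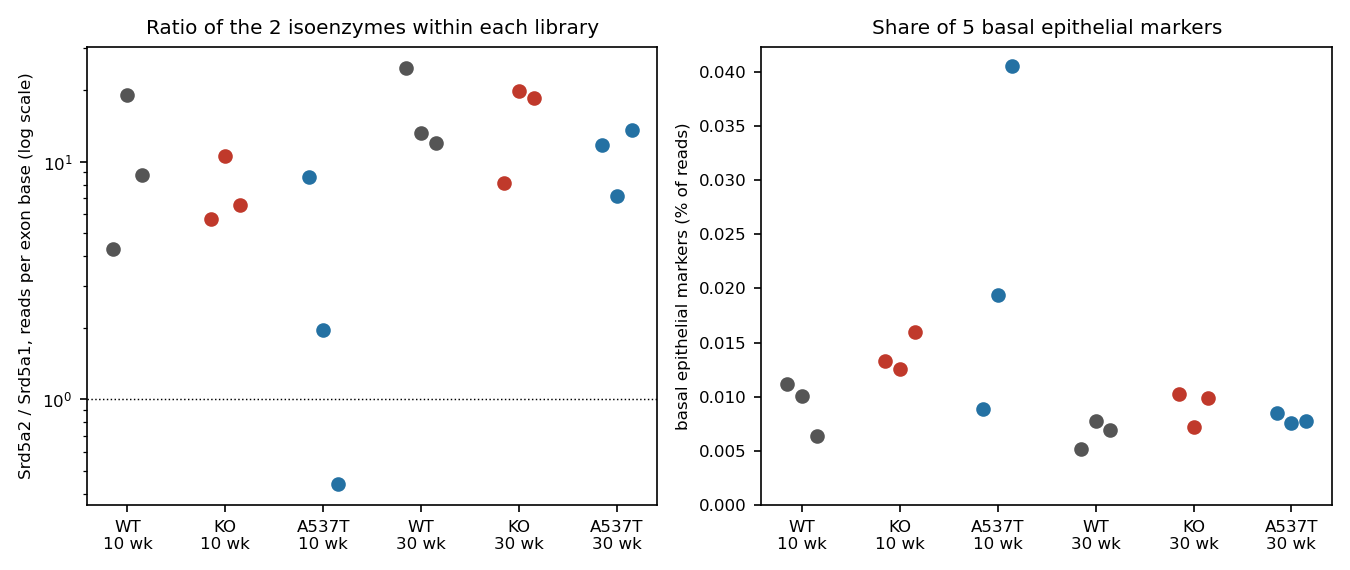
Left, ratio of Srd5a2 to Srd5a1 in reads per exon base within each library (log scale; the dotted line marks equal levels), and right, share of reads of the 5 basal epithelial markers in percent (linear from 0), both by group with 1 point per library. Library 18AF of the 10-week A537T group has the lowest ratio, 0.439, and the highest basal share, 0.0405%.

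In the other comparisons both isoenzyme genes overlapped between the groups. At 10 weeks KO libraries had 38.7, 23.4 and 33.2 for Srd5a1 against 42.1, 13.3 and 24.5 in WT (log2 fold change 0.36, SE 0.45, limma adjusted p = 0.666). Srd5a2 had 122, 137 and 120.0 against 99.8, 139.9 and 118 (log2 fold change 0.09, SE 0.18, limma adjusted p = 0.784). At 30 weeks Srd5a1 stayed at 12.8 to 19.8 in WT, 14 to 24.6 in KO and 18.6 to 36.6 in A537T libraries, with log2 fold changes of 0.01 (SE 0.38) and 0.51 (SE 0.37) and limma adjusted p = 0.996 and 0.554. Srd5a2 at that age had 111, 153 and 143 in KO and 144, 145 and 139 in A537T libraries. WT libraries had 176, 135 and 131 in the KO table, and both mutant groups overlapped them, with log2 fold changes of -0.12 (SE 0.19) in KO and -0.03 (SE 0.15) in A537T mice and limma adjusted p = 0.834 and 0.941.

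Over the 6 genes together, 0 passed a limma adjusted p of 0.05 in any of the 4 comparisons, and neither did any other gene, so the share of all genes called was 0%. Of the 6, 0 had an unadjusted limma p under 0.05 in KO and in A537T mice at 10 weeks, where 19.4% and 6.43% of all genes did. At 30 weeks 1 did in KO mice (Foxa1) and 2 in A537T mice (Tmprss2 and Foxa1), where 11% and 13.6% of all genes did. Groups did not overlap for 1 gene in 30-week KO mice, against 16.3% of all genes, and for 2 genes in 30-week A537T mice, against 18.6%. The median log2 fold change of the 6 genes was 0.02, 0.40, -0.17 and -0.13 in KO at 10 weeks, A537T at 10 weeks, KO at 30 weeks and A537T at 30 weeks, beside medians of all genes of -0.01, 0.01, -0.01 and -0.01. edgeR called 0 of the 6 in all 4 comparisons, and DESeq2 called 0, 0, 0 and 1 of them in that order, beside 4.74, 0.595, 1.93 and 3.22% of all genes.

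**Figure D4:**
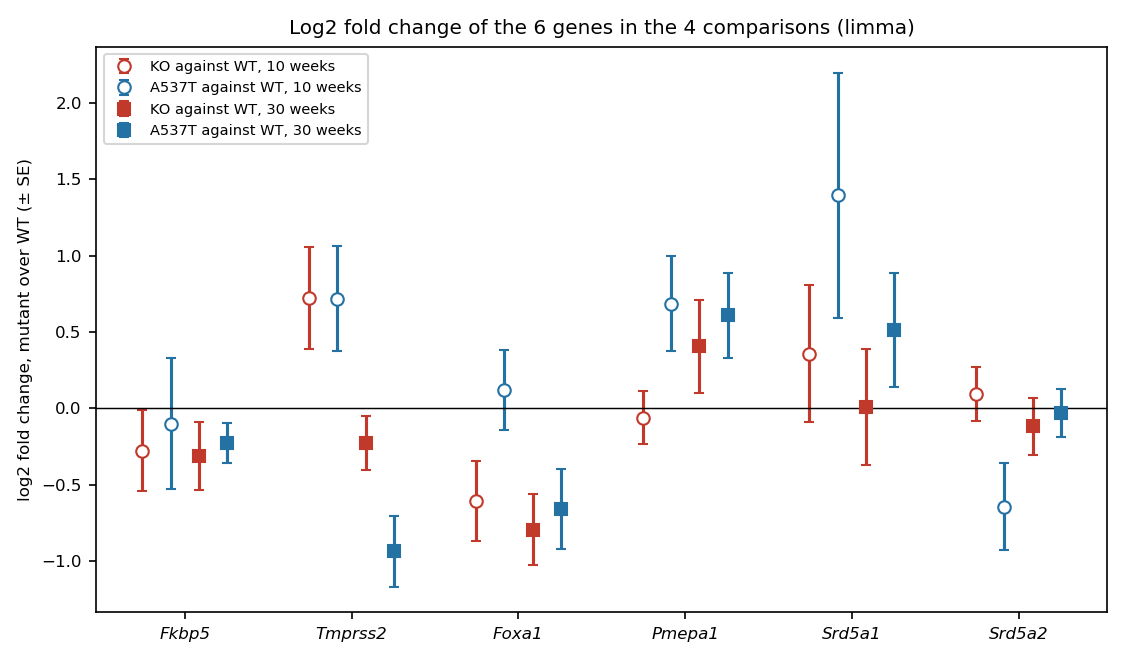
Log2 fold change of mutant over WT with its standard error (vertical axis) for the 6 genes in the 4 comparisons, with open circles for 10 weeks, filled squares for 30 weeks, red for KO and blue for A537T. Foxa1 is below 0 in 3 of the 4 comparisons, Tmprss2 is above 0 at 10 weeks and below 0 at 30 weeks in both lines, and the widest bar is that of Srd5a1 in 10-week A537T mice.

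The genes whose levels ran most like each member over the 18 libraries were found among 8989 genes with a mean of at least 10 RPM, by Pearson's r of log2(RPM + 1), as a description in which points share libraries, depth and RNA of neighbouring tissues. For Foxa1 they were Slc1a5 (a glutamine transporter, r = 0.97), 5330417C22Rik (0.97) and Phf19 (0.97). For Tmprss2 they were Gm37139 (0.91), Alcam (a cell adhesion molecule, 0.91) and Chd3 (0.89). Fkbp5 ran with Ctdspl (0.95), Myo1d (0.94) and Bmpr1b (a BMP receptor, 0.93). Pmepa1 ran with the stromal genes Col14a1 (a fibril-associated collagen, 0.93), Cavin1 (a caveolar coat protein, 0.92) and Fstl1 (0.92). Srd5a1 was closest to Ugdh (UDP-glucose dehydrogenase, 0.94), Nrp2 (a neuropilin, 0.92) and Itgb3 (an integrin subunit, 0.91), and Srd5a2 to Cited4 (0.88), Slc44a3 (0.85) and Tada2a (0.85).

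Genes around the 6 in the pathway were taken from lists written by hand. Of 30 other androgen-responsive genes 28, 28, 27 and 27 were tested in KO at 10 weeks, A537T at 10 weeks, KO at 30 weeks and A537T at 30 weeks, and limma called 0 in each. At 10 weeks 17 lay below WT in KO mice (median log2 fold change -0.25) and 13 in A537T mice (0.05). At 30 weeks 14 lay below in KO (median -0.22) and 16 in A537T mice (-0.20). Medians of all genes were -0.01, 0.01, -0.01 and -0.01 in the order above. The most abundant members of this list were Spink1, a secreted trypsin inhibitor, Pbsn, the probasin gene whose promoter drives Cre in the KO mice, and Msmb, a secreted microseminoprotein.
Pbsn had 13783, 10714 and 2984 normalized counts in WT and 14232, 20409 and 20447 in KO libraries at 10 weeks. Every KO library exceeded every WT library, as 11.7% of all genes did in that direction, with a log2 fold change of 1.25 (SE 0.56) and limma adjusted p = 0.273. In 10-week A537T mice it was also above all WT libraries, at 20104, 20061 and 19079 (log2 fold change 1.32, SE 0.54, limma adjusted p = 0.746), where 5.58% of all genes were. Without 12AF, the lowest WT library, the values were 0.58 (limma adjusted p = 0.414) in KO and 0.65 (limma adjusted p = 0.975) in A537T mice. At 30 weeks it was -1.61 (SE 0.86) in KO and -2.14 (SE 0.72) in A537T mice with limma adjusted p = 0.524 and 0.305, and the groups overlapped. Without 5AF the KO value was -0.67 (limma adjusted p = 0.524), and without 8AF the A537T value was -2.77 (limma adjusted p = 0.0458), where 8.16% of all genes were called. With all libraries the sign of Pbsn was that of Tmprss2 in each of the 4 comparisons, which share WT libraries within an age, without a passed test in any. Msmb and Spink1 went the other way from Tmprss2 at 10 weeks. Msmb was at -0.16 in KO and -1.40 in A537T mice there, and Spink1 at -4.93 and -0.16.
Msmb in 30-week KO mice had 4638, 3038 and 4269.8 against 7146, 8104 and 7673 in WT. All KO libraries including 5AF lay below WT, as 8.41% of all genes did. The log2 fold change was -0.96 (SE 0.17) with limma adjusted p = 0.292, and -0.78 (limma adjusted p = 0.00863) without 5AF, where 6.35% of all genes were called. In A537T mice of that age library 8AF was above WT, and the log2 fold change was -0.76 (SE 0.50) with limma adjusted p = 0.514. Without 8AF it was -1.35 (limma adjusted p = 0.0287), where 8.16% of all genes were called. Spink1 had 36647, 27369 and 53.7 in 10-week KO libraries against 36656, 164871 and 256019 in WT, all KO libraries below WT but the highest of them only narrowly. In that comparison 26% of all genes did not overlap between groups. Library 15AF carried most of the log2 fold change of -4.93 (SE 2.43) with limma adjusted p = 0.305, and without it the value was -1.87 (limma adjusted p = 0.528).

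Of 24 genes for the receptor complex, its cofactors and chaperones, all were tested, limma called 0 in each comparison, and 16 and 17 lay above WT at 10 weeks in KO and A537T mice (medians 0.14 and 0.10). In 10-week A537T mice 51.5% of all genes lay above 0. At 30 weeks 19 of the 24 lay below WT in KO (median -0.08, all genes -0.01) and 14 in A537T mice (-0.04, all genes -0.01). Ncoa4, a receptor coactivator that also delivers ferritin for degradation, had 3590.1, 3552 and 3363 in 30-week KO libraries against 5811, 6207 and 6626 in WT. All KO libraries, with or without seminal vesicle RNA, were close together and below WT, as 8.41% of all genes were. The log2 fold change was -0.83 (SE 0.10) with limma adjusted p = 0.165, and -0.84 (limma adjusted p = 0.00632) without 5AF, where 6.35% of all genes were called. In 30-week A537T mice Ncoa4 had 3709, 7506 and 2339, with 8AF above WT (log2 fold change -0.61, SE 0.38, limma adjusted p = 0.492). Without 8AF the value was -1.06 (limma adjusted p = 0.0238), where 8.16% of all genes were called. With all libraries the chaperone genes Hsp90ab1 and Hspa8 stayed within 0.5 of WT on the log2 scale in all 4 comparisons. Groups did not overlap for both in 10-week A537T mice, where 11.9% of all genes did not, and for Hsp90ab1 in 30-week KO mice, where 16.3% did not. Without 5AF the 30-week KO value of Hspa8 was -0.55 (limma adjusted p = 0.041), where 6.35% of all genes were called.
Of 23 steroid metabolism genes 13 were tested in each comparison, limma called 0, and the medians lay between -0.13 and -0.01. Their most abundant members Cyb5a (cytochrome b5), Por (cytochrome P450 reductase) and Hsd17b4 (a peroxisomal 17-beta-dehydrogenase) had log2 fold changes from -0.37 (Por in 30-week KO mice) to 0.20 (Cyb5a in 10-week A537T mice).

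Since Fkbp5 answers to glucocorticoids too, 16 glucocorticoid-responsive genes were set beside it, and limma called 0 in each comparison, with medians of -0.07, 0.17, 0.15 and 0.15 in the order above. Sgk1, a kinase induced by corticosteroids, had 5122, 4163 and 5535 in 10-week KO libraries against 3019.9, 1359 and 594 in WT (log2 fold change 1.86, SE 0.54, limma adjusted p = 0.183). Without 10AF the value was 2.45 (limma adjusted p = 0.0222), where 18.8% of all genes were called. Seminal vesicle markers took 9.47, 6.56 and 10.3% of reads in these KO libraries and 4.64, 1.77 and 0.000808% in these WT libraries, in the same order as Sgk1. Their part in the Sgk1 values was not tested. At 30 weeks Sgk1 was at 5410.4, 939.9 and 4324 in KO and 4201, 569 and 5293 in A537T libraries against 831 to 1104 in the WT libraries of the KO table. The 4 high values were those of the libraries with seminal vesicle RNA, and 5AF and 8AF were within and below the WT range. The metallothionein genes Mt1 and Mt2 lay below WT in all 30-week A537T libraries, as 9.4% of all genes did, and 8AF was the nearest to WT for both. Their log2 fold changes were -1.04 (SE 0.24) and -0.89 (SE 0.22) with limma adjusted p = 0.246 and 0.255. Without 8AF the values were -1.30 (limma adjusted p = 0.0052) and -1.14 (limma adjusted p = 0.00399), where 8.16% of all genes were called. In 30-week KO mice Mt1 had -0.58 (SE 0.20) and Mt2 -0.46 (SE 0.16), with limma adjusted p = 0.41 and 0.416. There Mt1 lay below WT in all KO libraries, as 8.41% of all genes did, while Mt2 overlapped. Without 5AF they had -0.77 (limma adjusted p = 0.0288) and -0.61 (limma adjusted p = 0.0355), where 6.35% of all genes were called.
Of 17 TGF-beta response genes, set beside Pmepa1, limma called 0, and 16 lay above WT in 10-week A537T mice (median 0.26), the comparison in which Pmepa1 stood at 0.69. The list genes share the same libraries, so this count is a description, and the part of stromal RNA in it was not tested. Of all genes in the 10-week A537T comparison 51.5% lay above 0. In the others 9 of 17, 7 of 17 and 6 of 16 tested lay above WT in KO mice at 10 weeks, KO mice at 30 weeks and A537T mice at 30 weeks. Smad4, the common mediator of the pathway, had 473, 622 and 479.8 in 30-week A537T libraries against 859, 731 and 841 in WT. All A537T libraries lay below WT, as 9.4% of all genes did. The log2 fold change was -0.63 (SE 0.14, limma adjusted p = 0.226), and -0.76 (limma adjusted p = 0.0124) without 8AF, where 8.16% of all genes were called. With all libraries of that comparison the receptor gene Tgfbr2 had -0.40 (SE 0.22) and the ubiquitin ligase gene Nedd4 -0.05 (SE 0.09). In 30-week KO mice Smad4 had -0.32 (SE 0.17), Tgfbr2 -0.50 (SE 0.35) and Nedd4 -0.03 (SE 0.09). Without 5AF Smad4 was at -0.50 (limma adjusted p = 0.0512) and Tgfbr2 at -0.90 (limma adjusted p = 0.0495), where 6.35% of all genes were called.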

How the data were processed

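Total RNA of the ventral and lateral lobes was sequenced in paired ends. The authors trimmed the reads with Trim Galore 0.4.1, aligned them by STAR 2.7.3a to GRCm38 and quantified genes with Salmon before import into DESeq2 1.26. The signal deposited by the authors is the gene count over the library's size factor, in 4 tables of 3 WT and 3 mutant libraries, and each table had its own normalization. Columns are named by library number alone. At each age, libraries present in both the KO and the A537T table were taken as WT and the rest as the mutant line of their table, without replicate numbers. Tables of the authors' own results (means, shrunken log2 fold changes, standard errors and s-values) were left aside. A symbol was found for 55107 of 55469 gene IDs.

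The 6 genes and the gene lists were chosen with earlier results of these data known. Named genes are the 6, Elac2, the 3 most abundant genes of each pathway list and the 3 genes most like each of the 6. The main test was limma 3.58.1 (lmFit and eBayes with a mean trend, R 4.3.3) on log2(normalized count + 1), two-sided, for genes whose normalized counts averaged 10 or more over a table, with Benjamini-Hochberg adjustment over all of them and a threshold of 0.05. It was tested on simulated data. Fold changes on this scale understate those of low genes. To compare ages, genotype labels were permuted exactly within each age.

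Dividing each value by that of 1 read returned whole reads, within 0.01, for at least 99.9% of values. In 4 columns with a size factor near 1 this rests on multiples of the lowest value. A WT library's reads were not identical in both of its tables, with 53.6 to 64.1% of genes differing, by a median of 1.16 to 2.35%, and levels use the KO tables. Reads served for levels in RPM, edgeR 4.0.16 and DESeq2 1.42.0. Further alternatives were a pseudocount of 8, a minimum of 1, 100 or none, quantile normalization, equal library totals, eBayes without a trend, marker scores as covariates and omission of single libraries. Gene positions are from GENCODE on GRCm38 and promoters from RefSeq (GRCm38.p6).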

Additional observations from a re-analysis of the deposited data

How the results depend on the processing

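No paired analysis was possible because the deposited columns carry no replicate numbers. Under limma the number of the 6 genes called stayed at 0 of 6 for every alternative except leaving out single libraries, where it ran from 0 to 2 in KO at 10 weeks, from 0 to 2 in KO at 30 weeks and from 0 to 2 in A537T at 30 weeks, the value of 2 coming without 10AF, 5AF and 8AF respectively. Those omissions called 18.8, 6.35 and 8.16% of all genes. In A537T at 10 weeks the number of the 6 genes called stayed at 0. For the differences between ages the count was 0 throughout, which shows no stability, since 1 gene alone could not go below an adjusted p of 0.06. DESeq2 called 1 gene in A537T at 30 weeks. A minimum count of 100 left Srd5a1 untested in every table and Pmepa1 untested in all but that of A537T at 10 weeks. Scaling to the same total moved the median of all genes to 0.20 in KO and 0.15 in A537T at 10 weeks.

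Among log2 fold changes that turned sign, none of them called, the skeletal muscle score gave 0.071 for Fkbp5 and -0.23 for Srd5a1 in KO at 10 weeks, 0.58 for Fkbp5, -0.021 for Tmprss2 and -0.037 for Srd5a1 in A537T at 10 weeks, and 0.12 for Srd5a2 in A537T at 30 weeks. The luminal score gave -0.036 for Srd5a2 in KO and -0.36 for Foxa1 in A537T at 10 weeks, 0.020 for Fkbp5, -0.34 for Srd5a1 and 0.11 for Srd5a2 in KO at 30 weeks, and 0.018 for Fkbp5, -0.083 for Pmepa1 and 0.39 for Srd5a2 in A537T at 30 weeks. The seminal vesicle score gave 0.034 for Fkbp5 in A537T at 10 weeks, 0.17 for Fkbp5, -0.21 for Srd5a1 and 0.031 for Srd5a2 in KO at 30 weeks, and 0.19 for Elac2 in A537T at 30 weeks. Leaving out the 2 libraries with seminal vesicle RNA, a setting chosen after seeing the data in which the lone mutant library is assumed to vary like the other groups, gave 0.22 for Fkbp5, -0.25 for Srd5a1 and 0.066 for Srd5a2 in KO and 0.23 for Elac2 in A537T at 30 weeks. The same total gave 0.15 for Pmepa1 in KO and 0.038 for Fkbp5 in A537T at 10 weeks, and quantile normalization gave -0.16 for Srd5a1 in KO at 30 weeks. The cause of these changes was not tested.

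Leaving out single libraries, the log2 fold change ran from -0.17 to 0.031 for Pmepa1, from -0.045 to 0.75 for Srd5a1 and from -0.029 to 0.21 for Srd5a2 in KO at 10 weeks, from -0.48 to 0.34 for Fkbp5 and from -0.16 to 0.29 for Foxa1 in A537T at 10 weeks, from -0.25 to 0.14 for Srd5a1 and from -0.21 to 0.019 for Srd5a2 in KO at 30 weeks, and from -0.11 to 0.10 for Srd5a2 in A537T at 30 weeks. The difference between ages ran from -0.31 to 0.17 for Fkbp5, from -0.43 to 0.10 for Foxa1 and from -0.74 to 0.056 for Srd5a1 in KO, and from -0.57 to 0.25 for Fkbp5 and from -0.45 to 0.13 for Pmepa1 in A537T. With 12 to 45 reads in most libraries, Srd5a1 carries the widest counting error of the 6 genes.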
